A study of Mus musculus with 16 samples.

Results

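The 9 genes described here code for proteins that take up dying cells and modified lipoproteins: the receptor kinases Mertk and Axl, the bridging molecules Gas6 and Mfge8, the scavenger receptors Stab1, Msr1, Marco and Scarb1, and the secreted protein Cd5l. They were chosen by name from the table of raw counts, 9 of its 37310 gene identifiers, and were read in all 16 libraries. RNA came from F4/80+ adipose tissue macrophages (ATMs) sorted from epididymal fat pads of male mice, young adults when the feeding began, on a high-fat diet (HFD). Mice labelled IRF5-KO carried Irf5 flox/flox alleles and LysM-Cre, a Cre recombinase placed in the Lyz2 locus that is active in macrophages, monocytes and neutrophils, and mice labelled WT were their wild-type littermates. All mice received HFD, for 4 weeks (short-term, ST-HFD) or 12 weeks (long-term, LT-HFD), which gave 4 groups of 4 libraries, WT and IRF5-KO at each duration. No chow-fed group is analysed here, and a difference between LT-HFD and ST-HFD covers both a longer diet and older mice, which cannot be told apart.

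Efferocytosis is the clearance of apoptotic cells by phagocytes. Dying cells expose phosphatidylserine, which Gas6 and Mfge8 bind on one side while they engage Mertk, Axl or integrins on the phagocyte on the other, and the lipid that is taken in is then degraded or exported. Scavenger receptors bind modified lipoproteins, lipid and cell debris, and in obese fat ATMs surround dying adipocytes and fill with lipid.

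The 16 libraries held 3279332 to 4958131 counts. Irf5 itself was no lower under the IRF5-KO label than under WT. Irf5, which lies on chromosome 6 and shares exon sequence with Tnpo3 on the opposite strand, was at 202.3 to 251 CPM (counts scaled to the library total after TMM normalization) in those labelled WT and 249.7 to 273 CPM in those labelled IRF5-KO on ST-HFD. On LT-HFD it was at 170 to 212 and 205.4 to 253 CPM. By edgeR's quasi-likelihood test IRF5-KO differed from WT on ST-HFD by 0.13 on the log2 scale (standard error, SE, 0.095, adjusted p = 1). The value for LT-HFD was 0.24 (SE 0.124, edgeR adjusted p = 0.853). A count over all exons cannot show whether a floxed stretch was lost. Lyz2, the locus that holds the Cre, had, under the IRF5-KO label, a log2 fold change of -0.97 at 4 weeks (edgeR adjusted p = 0.106) and -1.04 at 12 weeks (adjusted p = 0.0485), with no overlap at either duration. Over all alternative fits at both durations the log2 fold change of Lyz2 was -0.87 to -1.14, while its call moved. At 12 weeks the call was lost with the replicate block (adjusted p = 0.286), with offsets fitted to exon length (length-dependent offsets, adjusted p = 0.0678) and in 7 of 8 omissions of 1 library (adjusted p = 0.151 to 0.378), all but that of WT LT-HFD replicate 4. Lyz2 was called at both durations by DESeq2 (adjusted p = 2.72e-09 and 1.03e-10), with no filter (0.00269 and 0.00152) and in a fit over 16 libraries (0.00673 and 0.00316), and at 4 weeks also with the replicate block (0.00453). Since Irf5 counts do not tell the genotypes apart, these are named below as the libraries were labelled. Each library was taken to be a separate mouse, since the study counts its replicates in mice.

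Per length of exon and averaged over the 16 libraries, Gas6 and Stab1 were the most abundant of the 9 genes and Marco the least. On LT-HFD the mean of Axl was above that of Stab1, at 98.8 against 78.8 CPM per kb in WT and 120.2 against 73.3 in IRF5-KO, where it was also above that of Gas6 (115.5). The mean over the 16 libraries was 156.5 ± 45.2 CPM per kb (SD) for Gas6, 110.3 ± 40.8 for Stab1, 97.9 ± 19.7 for Axl and 35.6 ± 6.75 for Mertk. It was 18.7 ± 7.88 CPM per kb for Mfge8, 14.6 ± 1.85 for Msr1, 5.22 ± 1.78 for Scarb1, 3.62 ± 1.63 for Cd5l and 1.01 ± 1.59 for Marco. Gas6 was above Stab1, Axl above Mertk and Msr1 above Scarb1 in 16 of 16 libraries. Neighbours whose order changed between libraries were Stab1 and Axl, with Stab1 the higher in 9 of 16, and Mfge8 and Msr1, with Mfge8 the higher in 9 of 16. Scarb1 was above Cd5l in 12 of 16 libraries, and Mertk above Mfge8 and Cd5l above Marco in 15 of 16.

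**Figure D1:**
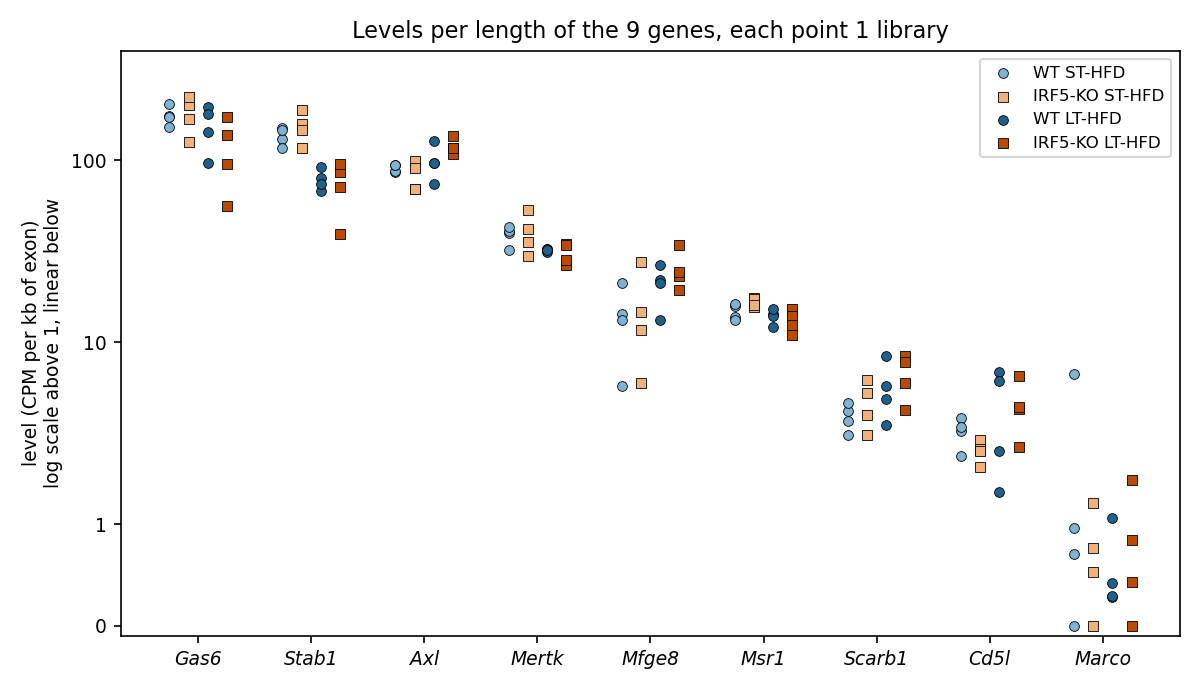
Levels of the 9 genes in CPM per kb of exon (vertical axis, log scale above 1 and linear below), in order of their mean, with each point 1 library and the 4 groups side by side in colour. Gas6, Stab1 and Axl lie between 39.4 and 223 CPM per kb, and Marco lies below 2 CPM per kb in every library but 1 of the WT ST-HFD group.

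Marco did not pass the filter on low counts, so that 8 of the 9 genes were tested. Between genotypes, 0 of the 8 genes were called at either diet duration. On ST-HFD the log2 fold changes of the libraries labelled IRF5-KO against WT ranged from -0.37 (Cd5l) to 0.24 (Scarb1), with an edgeR adjusted p of 1 for each, and 0 of the 8 had an unadjusted p under 0.05. The background was 0.00913% of 10958 tested genes called, and 1.84% at the unadjusted threshold. On LT-HFD they ranged from -0.42 (Gas6) to 0.28 (Axl), with edgeR adjusted p between 0.859 and 0.995 and again 0 of 8 at an unadjusted p under 0.05. The background was 0.0182% of 10987 genes called, and 5.72% at the unadjusted threshold. DESeq2's Wald test also called 0 of the 8 at both durations. In both comparisons the ranges of the 2 groups overlapped for each of the 9 genes, where 1.47% (ST-HFD) and 3.02% (LT-HFD) of all tested genes did not overlap. With the replicate number as a block, 2 genes in place of 1 were called on ST-HFD, neither of them among the 8.

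With diet duration, Stab1 was lower on LT-HFD in both genotypes, in WT with a call that scaling to macrophage markers (below) ended. In the libraries labelled IRF5-KO Axl was higher and Msr1 lower, the last with a call that several settings ended. In WT libraries 1 of the 8 genes was called, beside a background of 25.3% of 11560 genes (12.1% higher and 13.2% lower), and 1 of the 8 had an unadjusted p under 0.05 beside 35.9%. In IRF5-KO libraries 3 of the 8 were called, 1 higher and 2 lower, beside 32.8% of 11560 genes (15.6% higher and 17.2% lower). In IRF5-KO an unadjusted p under 0.05 was found for 6 of the 8 beside 42.8% of all genes. These counts over 8 genes are a description. The median log2 change over the 8 was 0.02 in WT and 0.09 in IRF5-KO, against 0.02 and 0.04 over all genes tested. A difference of the change with duration between genotypes was not shown. The interaction was called by edgeR for 0% of 11560 genes and for 0 of the 8 (adjusted p between 0.969 and 0.998). At an unadjusted p under 0.05 stood 0 of the 8 and 3.93% of all genes, and DESeq2's Wald test called 0 genes as well.

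**Figure D2:**
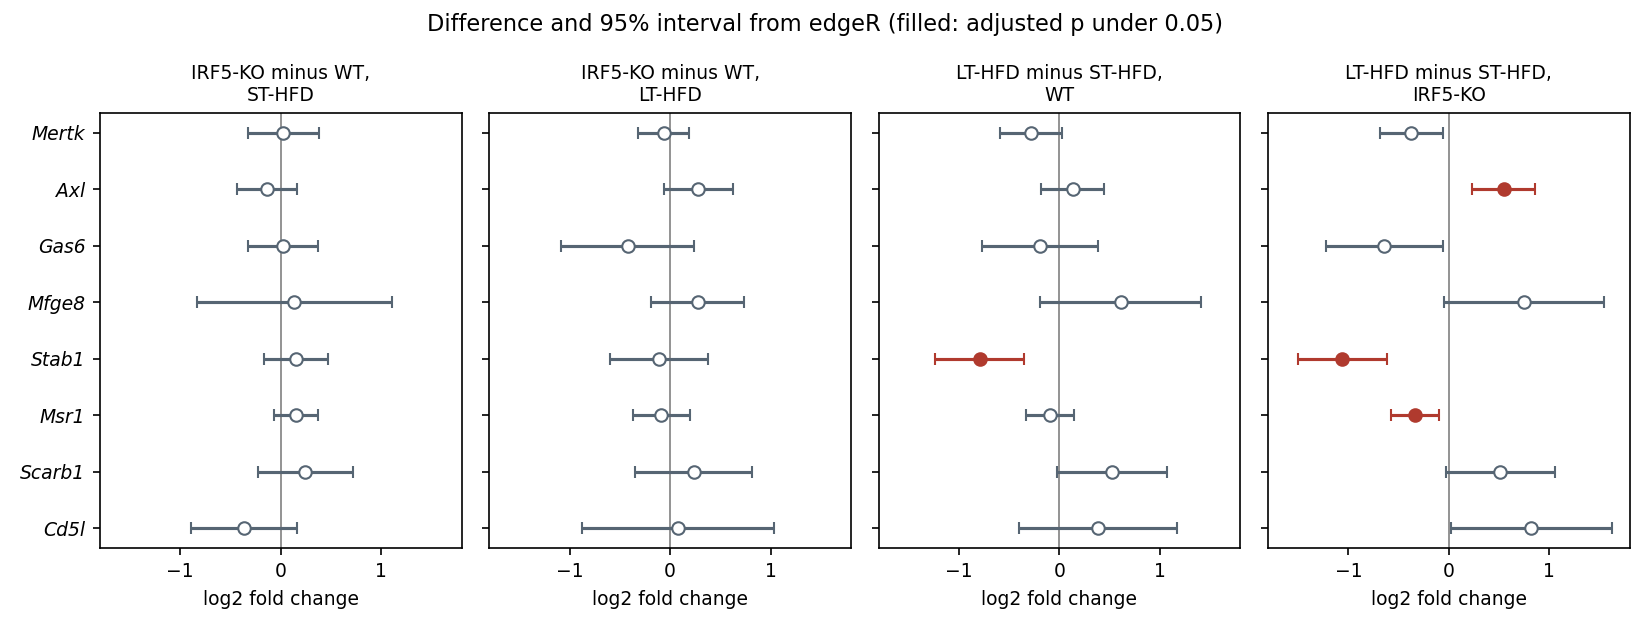
Log2 fold change (horizontal axis) of the 8 tested genes in the 4 comparisons, with bars for the 95% confidence interval and filled points where the adjusted p was under 0.05. The 4 filled points are Stab1 in both diet duration panels and Axl and Msr1 in the IRF5-KO duration panel, and each interval in both genotype panels spans 0.

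Mertk and Axl are receptor tyrosine kinases of the TAM family, which bind phosphatidylserine through Gas6 or protein S. Axl (chr7:25757273-25788705 of GRCm38, minus strand) was at 436, 438, 472 and 472 CPM in WT ST-HFD libraries 1 to 4 and at 500.1, 348, 349.8 and 457 CPM in IRF5-KO ST-HFD. In LT-HFD libraries Axl was at 487, 372, 489.7 and 641 CPM in WT libraries and at 592, 688, 549 and 592 CPM in IRF5-KO libraries. The 4 IRF5-KO LT-HFD libraries all lay above the 4 IRF5-KO ST-HFD libraries, as was the case for 14.3% of all genes tested, while the WT LT-HFD libraries spread on both sides of WT ST-HFD. In IRF5-KO libraries Axl rose from 414 ± 76.8 to 605.1 ± 59.1 CPM (SD, n = 4), which is 0.55 on the log2 scale (SE 0.149, edgeR adjusted p = 0.00944). In WT libraries the log2 change was 0.13 (SE 0.149, adjusted p = 0.575). The difference between these changes was 0.42 with a 95% interval from -0.03 to 0.86 (unadjusted p = 0.0632, edgeR adjusted p = 0.969), so that a difference of Axl's change between genotypes was not shown. On LT-HFD itself Axl was at 605.1 CPM in IRF5-KO and 497 ± 111 CPM in WT libraries, a log2 fold change of 0.28 with a 95% interval from -0.07 to 0.62 that reaches 0.

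Mertk (chr2:128698956-128802894, plus strand) was at 140.1, 173, 178 and 188 CPM in WT ST-HFD and at 129, 181, 230.1 and 155 CPM in IRF5-KO ST-HFD. The LT-HFD levels of Mertk were 136, 141, 141 and 139.6 CPM in WT libraries and 115, 149.7, 123 and 148 CPM in IRF5-KO libraries. The WT LT-HFD libraries were closer together than those of any other group, and in both genotypes the LT-HFD range overlapped the ST-HFD range. Mertk's log2 change with duration was -0.28 in WT (SE 0.148, edgeR adjusted p = 0.183) and -0.38 in IRF5-KO (SE 0.148, adjusted p = 0.0608), neither of which passed the threshold. Without IRF5-KO ST-HFD replicate 1 Mertk was called in IRF5-KO (-0.49, adjusted p = 0.0121). Without IRF5-KO ST-HFD replicate 3 the value was -0.21, and over all omissions of 1 library the edgeR adjusted p reached 0.26.

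Gas6, a vitamin K-dependent protein and the ligand of Mertk and Axl, was at 449, 518, 440.2 and 390.4 CPM in WT ST-HFD and at 323, 516, 569 and 427 CPM in IRF5-KO ST-HFD. On LT-HFD it was at 363, 498, 248 and 461 CPM in WT libraries and at 351, 142, 243 and 440.4 CPM in IRF5-KO libraries. The LT-HFD libraries of both genotypes spread more widely than the WT ST-HFD libraries, and the lowest level of the 16 was that of IRF5-KO LT-HFD replicate 2. With duration Gas6 had a log2 change of -0.20 in WT (SE 0.273, edgeR adjusted p = 0.652) and -0.64 in IRF5-KO (SE 0.274, adjusted p = 0.083). Gas6 was called in IRF5-KO without ST-HFD replicate 1 (-0.78, adjusted p = 0.0434) or without LT-HFD replicate 4 (-0.90, adjusted p = 0.0202). Without LT-HFD replicate 2, its lowest library, the value was -0.41, and over all omissions of 1 library the edgeR adjusted p reached 0.209. The gene (chr8:13465374-13494490, minus strand) shares exon sequence with Tmem255b on the opposite strand, and the strand setting of the counting is not given in the sources used here.

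Mfge8, which bridges phosphatidylserine to integrins of the alpha-v family, was at 67.3, 27.1, 62.1 and 99.0 CPM in WT ST-HFD and at 129.7, 27.9, 54.6 and 68.7 CPM in IRF5-KO ST-HFD. LT-HFD libraries held Mfge8 at 103.9, 62.3, 124 and 99.5 CPM in WT libraries and at 109, 91.3, 160.2 and 115 CPM in IRF5-KO libraries. The 4 libraries of each group spread widely around their mean, and replicate 2 was the lowest of its group in each of the 4 groups. With duration Mfge8 had a log2 change of 0.61 in WT (SE 0.379, edgeR adjusted p = 0.269) and 0.75 in IRF5-KO (SE 0.378, adjusted p = 0.14). Without IRF5-KO ST-HFD replicate 1 Mfge8 was called (1.23, adjusted p = 0.015), and over all omissions of 1 library its value was 0.49 to 1.23 in IRF5-KO and 0.36 to 0.91 in WT. Mfge8 lies at chr7:79133768-79149060 on the minus strand.

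Stab1 codes for stabilin-1, a large receptor of macrophages and sinusoidal endothelium that binds phosphatidylserine, modified low-density lipoprotein and matrix fragments. Its level was 1349, 1553, 1510.0 and 1210.0 CPM in WT ST-HFD and 1198, 1638, 1934 and 1515 CPM in IRF5-KO ST-HFD. On LT-HFD it was 827, 951, 701 and 760 CPM in WT libraries and 739, 405, 886 and 986 CPM in IRF5-KO libraries. Each of the 8 LT-HFD libraries was below each of the 8 ST-HFD libraries. Stab1 fell from 1406 ± 157 to 810.2 ± 107 CPM (SD, n = 4) in WT, by 0.80 on the log2 scale (SE 0.21, edgeR adjusted p = 0.00964). In IRF5-KO it fell from 1571 ± 305 to 754 ± 254 CPM, by 1.06 on the log2 scale (SE 0.211, edgeR adjusted p = 0.000977). Among all genes tested, 13.8% (WT) and 15.2% (IRF5-KO) were lower on LT-HFD with no overlap. IRF5-KO LT-HFD replicate 2, the lowest library in Stab1 as in Gas6, did not decide the call, since Stab1 fell by 0.85 on the log2 scale without it (edgeR adjusted p = 0.000828). The gene (chr14:31139013-31168641, minus strand) shares exon sequence with Nt5dc2 on the opposite strand.

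Msr1 (chr8:39581685-39642673, minus strand) codes for the class A scavenger receptor of macrophages, which takes up acetylated and oxidised lipoprotein. It was at 101, 87.5, 84.5 and 103.7 CPM in WT ST-HFD and at 111, 99.0, 109 and 102 CPM in IRF5-KO ST-HFD. On LT-HFD it was at 90.6, 88.1, 96.8 and 77.2 CPM in WT libraries and at 96.2, 88.9, 78.7 and 69.3 CPM in IRF5-KO libraries. In relation to its mean, Msr1 had the smallest SD of the 9 genes over the 16 libraries. The IRF5-KO libraries of the 2 durations did not overlap, as was the case in this direction for 15.2% of all genes tested, while the WT libraries did. In IRF5-KO libraries Msr1 fell by 0.34 on the log2 scale (SE 0.112, edgeR adjusted p = 0.0282), from 105.2 ± 5.72 to 83.3 ± 11.8 CPM (SD, n = 4). This call was lost without IRF5-KO ST-HFD replicate 1 (adjusted p = 0.065), IRF5-KO ST-HFD replicate 3 (adjusted p = 0.067), IRF5-KO LT-HFD replicate 3 (adjusted p = 0.0753) or IRF5-KO LT-HFD replicate 4 (adjusted p = 0.0903). It was also lost with the replicate block (adjusted p = 0.056), with no filter (0.0613), with each genotype fitted alone (0.0523) and with length-dependent offsets (0.113), and scaling to macrophage markers turned the value to 0.15. In WT libraries the log2 change was -0.10 (SE 0.112, adjusted p = 0.585), and the interaction of -0.24 had a 95% interval from -0.57 to 0.09.

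Scarb1 (chr5:125277087-125341094, minus strand), the receptor through which cells exchange cholesterol with high-density lipoprotein, was at 35.8, 26.4, 31.3 and 39.6 CPM in WT ST-HFD and at 53.0, 26.4, 34.1 and 44.7 CPM in IRF5-KO ST-HFD. After LT-HFD Scarb1 was at 41.7, 48.8, 71.5 and 30.1 CPM in WT libraries and at 51.0, 71.9, 66.7 and 36.3 CPM in IRF5-KO libraries. Its mean was higher on LT-HFD in both genotypes, with ranges that overlapped. Scarb1's log2 change with duration was 0.52 in WT (SE 0.261, edgeR adjusted p = 0.16) and 0.51 in IRF5-KO (SE 0.258, adjusted p = 0.14), and the interaction was -0.01 with a 95% interval from -0.78 to 0.76. Over omissions of 1 library the change was 0.26 (without WT LT-HFD replicate 3) to 0.70 in WT. In IRF5-KO it was 0.36 to 0.69, and none of these values was called.

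Cd5l and Marco were near the limit of what this depth can show. Cd5l (chr3:87357881-87371073, plus strand), the apoptosis inhibitor of macrophages that these cells secrete, had 11 to 46 counts per library. Its level was 4.86 to 7.82 CPM in WT ST-HFD, 4.2 to 5.90 CPM in IRF5-KO ST-HFD, 3.05 to 13.9 CPM in WT LT-HFD and 5.41 to 13.2 CPM in IRF5-KO LT-HFD, with the wider ranges on LT-HFD. Cd5l's log2 change with duration was 0.82 in IRF5-KO (SE 0.381, edgeR adjusted p = 0.109) and 0.38 in WT (SE 0.374, adjusted p = 0.504). The WT value of Cd5l was 0.07 without WT LT-HFD replicate 2, 0.13 without replicate 4 and 0.66 without replicate 3, none of them called. Marco (chr1:120474538-120505024, minus strand), a class A scavenger receptor for bacteria and particles, had 0 to 11 counts in 15 of the 16 libraries and 51 counts, or 12.9 CPM, in WT ST-HFD replicate 3. The other 3 libraries of that group were at 0, 1.36 and 1.85 CPM, and the other groups at 0 to 2.53 CPM (IRF5-KO ST-HFD), 0.54 to 2.09 CPM (WT LT-HFD) and 0 to 3.39 CPM (IRF5-KO LT-HFD). A difference of Marco between groups was not detectable at this depth.

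**Figure D3:**
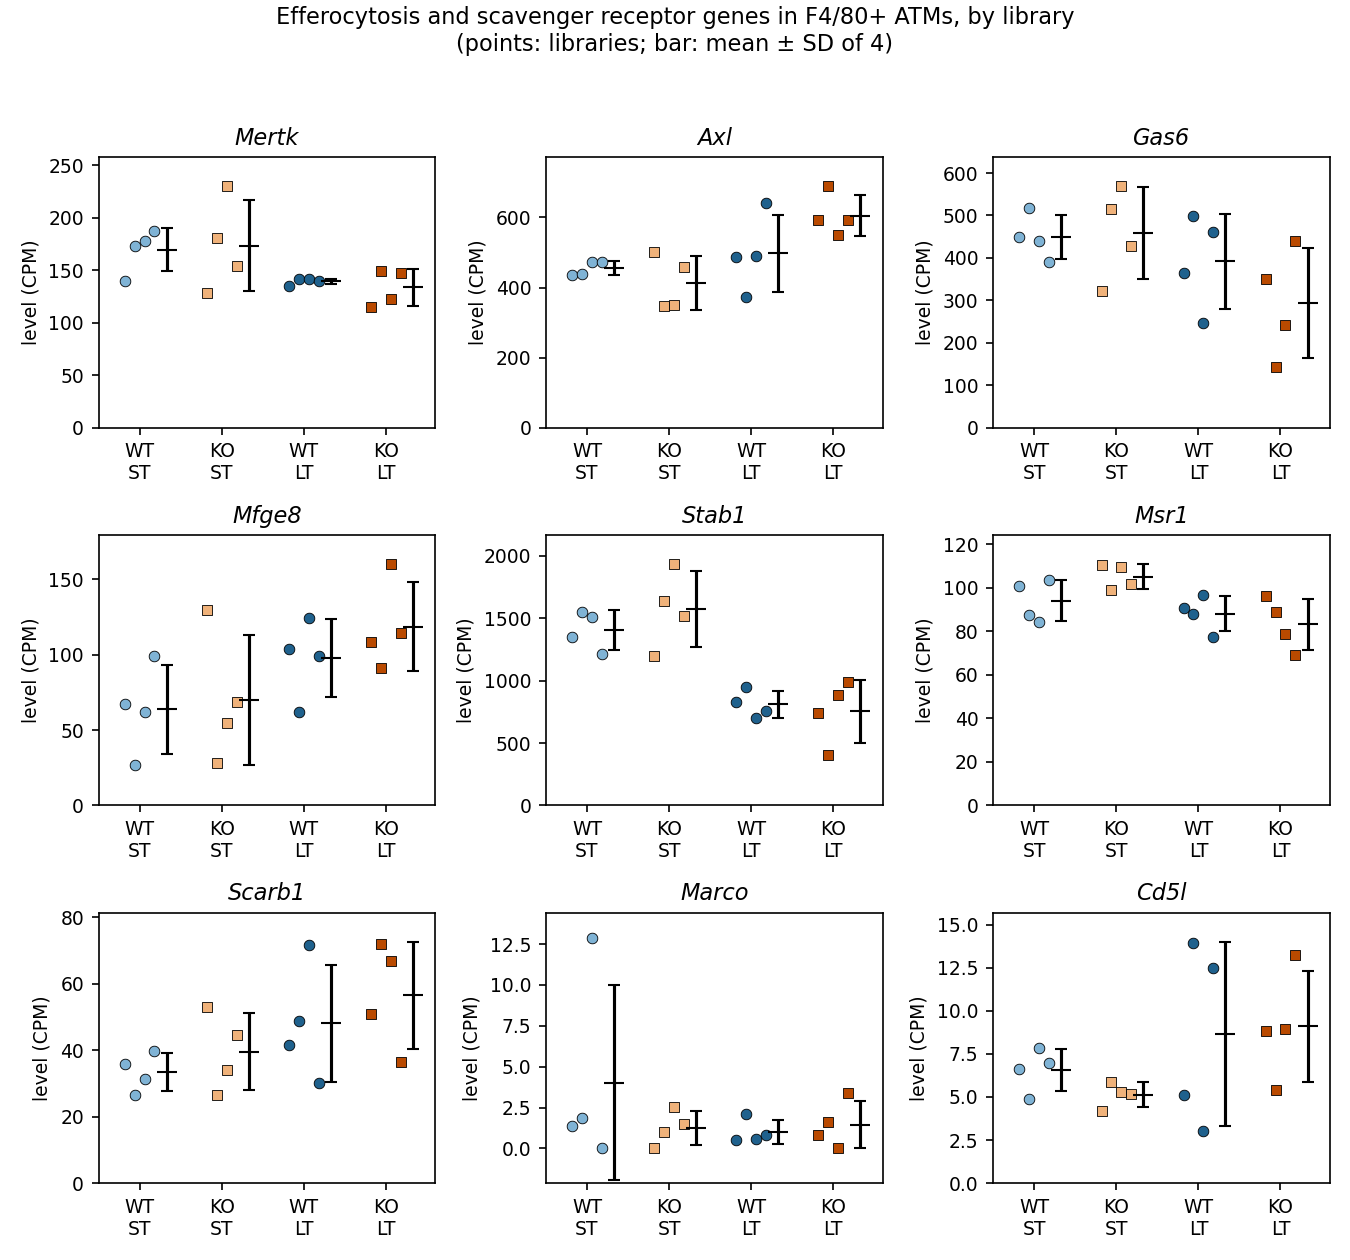
Level in CPM (vertical axis, a scale of its own for each gene) of the 9 genes in each library of the 4 groups, with circles for WT, squares for IRF5-KO, and black bars for the mean ± SD of 4 libraries. The Stab1 libraries on LT-HFD all lie at 986 CPM or below and those on ST-HFD at 1198 CPM or above, and WT ST-HFD replicate 3 stands alone in Marco.

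The bases just before the start of Axl, Gas6 and Stab1 are shown because in IRF5-KO libraries Axl and Stab1 changed in opposite directions with diet duration and Gas6 is the ligand of Axl. They are the 250 bases upstream of the RefSeq start on GRCm38.p6, written 5′ to 3′ on the strand of the gene, and 7 of the 9 genes matched the table of such windows. Capitals mark GAGGAA, a core that the macrophage factor PU.1 binds, and GGGCGG, the GC box of Sp1 factors. Both were searched on both strands, and no 2 matches overlapped.
Axl (chr7:25788734-25788983, minus strand): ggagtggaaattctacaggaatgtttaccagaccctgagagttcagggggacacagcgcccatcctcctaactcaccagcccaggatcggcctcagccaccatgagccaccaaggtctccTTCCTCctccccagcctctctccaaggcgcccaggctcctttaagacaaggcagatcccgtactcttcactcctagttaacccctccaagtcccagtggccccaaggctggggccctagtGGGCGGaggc
Gas6 (chr8:13494536-13494785, minus strand): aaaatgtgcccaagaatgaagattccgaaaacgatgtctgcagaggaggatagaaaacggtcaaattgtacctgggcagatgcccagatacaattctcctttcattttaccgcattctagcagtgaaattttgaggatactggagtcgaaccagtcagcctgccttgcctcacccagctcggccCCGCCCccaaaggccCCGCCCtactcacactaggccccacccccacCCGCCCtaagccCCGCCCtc
Stab1 (chr14:31168642-31168891, minus strand): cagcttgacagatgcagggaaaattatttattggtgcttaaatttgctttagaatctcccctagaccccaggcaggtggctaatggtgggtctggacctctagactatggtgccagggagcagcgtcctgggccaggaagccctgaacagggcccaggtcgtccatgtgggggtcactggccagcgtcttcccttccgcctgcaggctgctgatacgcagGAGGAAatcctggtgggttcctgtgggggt
GAGGAA stood in the windows of Axl, Mfge8, Stab1, Marco and Cd5l, 5 of 7, and in 23.3% of all 32851 windows. In Stab1 it begins 30 bases before the start on the gene's own strand, and in Axl 130 bases before it on the opposite strand. GGGCGG stood in the windows of Mertk, Axl, Gas6 and Mfge8, 4 of 7, and in 32.7% of all, with 4 matches in Gas6 and none in Stab1. An IRF-type pair, the core GAAA followed by any 2 bases and a further GAAA, was in 0 of the 7 windows and in 2.98% of all. The TATA box TATAAA (12.4% of all windows), the E-box CACGTG (6.02%) and the AP-1 site TGANTCA (6.75%), searched on both strands too, were in 0 of the 7. The windows of Marco and Cd5l held 0 CpG and were 47.6% and 46.8% G or C, those of the other 5 genes 54.8% to 65.2%, and the median window 52.4%. A match of letters is no evidence of binding, and no match says only that the letters are not in the window.

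Other properties of the libraries moved with diet duration, and their part in the changes of Stab1, Axl and Msr1 was not tested. Library totals were 3860469 to 4958131 counts in ST-HFD libraries and 3279332 to 3792898 in LT-HFD libraries, and the 3 most abundant features took 18.6% to 24.1% and 26.1% to 34.5% of them. The summed level of 7 fibroblast or preadipocyte markers was 669 to 1628 CPM on ST-HFD and 3117 to 9107 CPM on LT-HFD, with 7 of 7 higher in both genotypes. Among them were Pdgfra (log2 fold change 3.45 in WT and 3.22 in IRF5-KO) and Col1a1 (1.04 and 1.11). The summed level of 7 macrophage markers was 4786 to 5158 CPM on ST-HFD and 3129 to 4000 CPM on LT-HFD. Csf1r, the receptor for the macrophage growth factor CSF1, fell with duration by 0.62 on the log2 scale in WT and by 0.88 in IRF5-KO (edgeR adjusted p = 0.001 and 3.13e-05). Adgre1, the gene of the F4/80 antigen used for the sort, was at a log2 fold change of 0.20 in WT (adjusted p = 0.356) and rose by 0.46 in IRF5-KO (adjusted p = 0.0235). Of the 7 macrophage markers, 3 were lower and 0 higher in WT and 4 lower and 2 higher in IRF5-KO. Markers of other cells were low. The summed levels of the lists were at most 56.4 CPM for adipocytes, 110.1 for endothelial cells, 20.2 for mesothelial cells, 41.8 for dendritic cells and 215.5 for monocytes. They were at most 2.43 CPM for neutrophils (Ly6g at 0 in all 16 libraries), 6.93 for eosinophils, 8.21 for T or NK cells and 9.4 for B cells. Of the genes of these lists, the endothelial receptor Tek was called higher with duration in both genotypes (log2 fold change 2.57 in WT and 2.14 in IRF5-KO). The other 5 endothelial markers tested were not called and went both ways. They were at -0.45 (Pecam1) to 0.94 (Cldn5) in WT and -0.70 (Vwf) to 0.59 (Cldn5) in IRF5-KO. In IRF5-KO the monocyte chemokine receptor Ccr2 (-0.80) and the adipocyte gene Cidec (-1.05) were called lower. Plac8, the only other monocyte marker tested, went the opposite way in IRF5-KO (1.66, edgeR adjusted p = 0.0515) and was not called. The summed monocyte markers in IRF5-KO were at 139.9 to 215.5 CPM after 4 weeks and 61.9 to 125.2 CPM after 12 weeks. In bulk RNA, fewer cells of a type and less RNA per cell cannot be told apart.

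Scaled to the summed macrophage markers in place of TMM, an alternative chosen after seeing the data, the median change of all genes with duration moved to 0.46 in WT and 0.53 in IRF5-KO. On this scale Axl was higher on LT-HFD in both genotypes, by a log2 fold change of 0.59 in WT (edgeR adjusted p = 0.0104) and 1.03 in IRF5-KO (adjusted p = 0.000145). The log2 fold change of Stab1 was -0.36 in WT (adjusted p = 0.204) and -0.56 in IRF5-KO (adjusted p = 0.0461), in both cases below the median of all genes. Msr1 turned to 0.33 in WT (adjusted p = 0.0214) and 0.15 in IRF5-KO (adjusted p = 0.266), Mertk to 0.16 and 0.10, and Gas6 to 0.26 in WT. Each of these values lies below the median of all genes on this scale, as each did with TMM. Of all calls, 9.32% in WT and 10.4% in IRF5-KO were then lower, in place of 52.2% and 52.4% with TMM. Exon length also moved with duration: genes over 8 kb had a median log2 change of -0.19 in WT and -0.22 in IRF5-KO, and 29.3% and 34.7% of them were called lower. Genes up to 1 kb had medians of 0.32 and 0.43. Stab1, at 10.3 kb, and Scarb1, at 8.5 kb, are in the longest class, and the change of Scarb1 (0.52 and 0.51, not called) had the opposite sign to the medians of that class. With offsets that take up this dependence on length, also chosen after seeing the data, Stab1 was lower by -0.56 in WT (edgeR adjusted p = 0.0462) and -0.81 in IRF5-KO (adjusted p = 0.00473), and Axl was higher by 0.58 in IRF5-KO (adjusted p = 0.00821). Msr1 no longer passed the threshold in IRF5-KO (-0.24, adjusted p = 0.113).

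**Figure D4:**
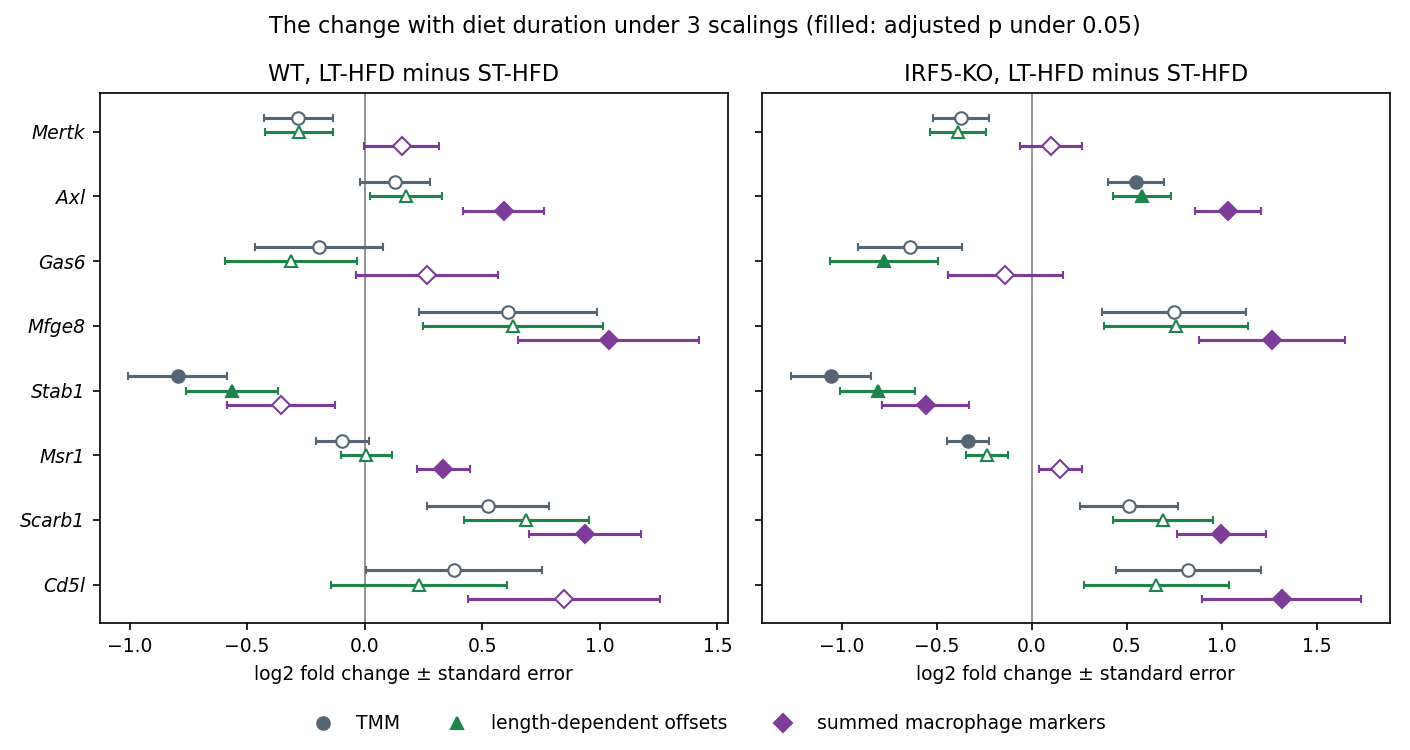
Log2 fold change of LT-HFD against ST-HFD (horizontal axis, bars for the standard error) of the 8 tested genes in WT and IRF5-KO libraries under TMM (circles), length-dependent offsets (triangles) and scaling to the summed macrophage markers (diamonds), filled where the adjusted p was under 0.05. Stab1 lies left of 0 and Axl right of 0 under all 3 scalings. Mertk and Msr1 in both genotypes and Gas6 in WT change sides under the macrophage markers, where the median of all genes is at 0.46 in WT and 0.53 in IRF5-KO. With length-dependent offsets Msr1 in WT lies just right of 0.

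Within the groups some of the 8 genes varied together from library to library. Deviations of log2 CPM from the group mean were correlated over the 16 libraries for all 28 pairs. A two-sided permutation test shuffled libraries within groups, and 4 pairs had an adjusted p under 0.05 for Pearson's r over the 28. That test moves each library on its own. ST-HFD libraries of the 2 genotypes with the same replicate number had correlated deviations (0.179 to 0.483), but some with different numbers did too (up to 0.467). When ST-HFD libraries with the same number were moved together, an alternative chosen after seeing the data, the exact permutation test over 13824 arrangements gave an adjusted p of 0.0238 for each of the same 4 pairs and called no other. Gas6 and Stab1 rose and fell together (r = 0.84, permutation p = 0.0022, adjusted p = 0.0253, and rho = 0.72, permutation p = 0.00734, adjusted p = 0.0685). Once the 2 libraries with the most extreme deviations of the first gene, here Gas6, were left out, r was 0.66. Gas6 and Cd5l did so too (r = 0.74, permutation p = 0.00271, adjusted p = 0.0253, and rho = 0.65, permutation p = 0.0277, adjusted p = 0.111, and r = 0.68 without 2 libraries). Gas6 and Scarb1 went in opposite directions (r = -0.80, permutation p = 0.0021, adjusted p = 0.0253, and rho = -0.81, permutation p = 0.00333, adjusted p = 0.0466, and r = -0.78 without 2 libraries). The same was seen for Axl and Stab1 (r = -0.61, permutation p = 0.00376, adjusted p = 0.0263, and rho = -0.74, permutation p = 0.00291, adjusted p = 0.0466, and r = -0.69 without 2 libraries). Levels in one library share its total, and these relations describe 16 libraries only.

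**Figure D5:**
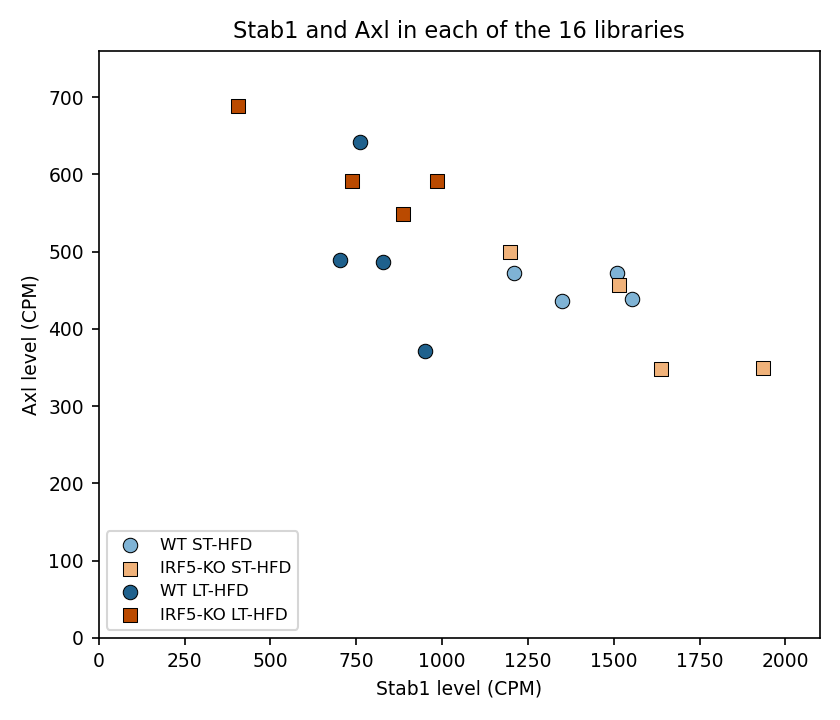
Axl level against Stab1 level, both in CPM, in each of the 16 libraries, with circles for WT and squares for IRF5-KO and darker colours for LT-HFD. IRF5-KO LT-HFD replicate 2 has the highest Axl (688 CPM) and the lowest Stab1 (405 CPM), and the 8 ST-HFD libraries lie to the right at 1198 CPM of Stab1 or more.

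The genes whose level over the 16 libraries was most like that of each member are given as a description, with Pearson's r of log2 CPM over 11560 genes. For Gas6 they were F13a1 (r = 0.97), the coagulation factor XIII subunit of macrophages, Cbr2 (0.95) and Ctsc (0.95). For Mfge8 they were Dppa3 (0.92), Trem2 (0.92), a lipid receptor of macrophages, and Cd9 (0.91), a tetraspanin. For Stab1 they were Chd9 (0.97), Son (0.96) and Trrap (0.96). Cd5l was most like Slc40a1 (0.91), the iron exporter ferroportin, then Ip6k1 (0.87) and Slc31a2 (0.86), and Scarb1 most like Eif2s1 (0.94), Hk3 (0.94) and Atp6v1g1 (0.91). Axl was closest to Yif1a (0.89), Nqo2 (0.88) and Aldh3a2 (0.87), Mertk to Ing2 (0.88), Fam160b2 (0.88) and Pag1 (0.87), and Msr1 to Ehd4 (0.87), Gar1 (0.85) and Mapkbp1 (0.84).

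A wider list of 59 other genes of uptake, 53 of them tested over the 16 libraries, had calls with diet duration and none between genotypes. Between genotypes 0 of 52 tested genes (ST-HFD) and 0 of 53 (LT-HFD) were called by edgeR. At an unadjusted p under 0.05 there were 0 of 52 beside 1.84% of all genes on ST-HFD, and 9 of 53 beside 5.72% on LT-HFD. The interaction called 0 of 53, with 4 of 53 at an unadjusted p under 0.05 beside 3.93% of all genes. With duration, 6 were higher and 8 lower in WT and 8 higher and 15 lower in IRF5-KO, with a list median of 0.01 and 0.04 beside 0.02 and 0.04 over all genes and the shares of 25.3% and 32.8% of all genes called. Among 7 further bridging molecules 0 were called in WT and 1 in IRF5-KO, C1qb (log2 fold change -0.29, edgeR adjusted p = 0.0444). C1qb, named after its value was seen, is a subunit of complement C1q, which opsonises dying cells. With length-dependent offsets C1qb was called lower in both genotypes (-0.42 in WT and -0.54 in IRF5-KO, adjusted p = 0.00855 and 0.00102), and the other subunits C1qa and C1qc in IRF5-KO (-0.46 and -0.51, adjusted p = 0.0267 and 0.00577). With TMM these 2 subunits, also named after their values were seen, were at -0.20 and -0.33 in IRF5-KO (adjusted p = 0.289 and 0.0526), and with marker scaling C1qa, C1qb and C1qc were at 0.28, 0.20 and 0.15, below the median of all genes. Among 15 receptors of phosphatidylserine or of bridging molecules, 9 were tested. Of these, 0 were called higher and 1 lower in WT, beside 12.1% and 13.2% of all genes. In IRF5-KO 1 was called higher and 2 lower, beside 15.6% and 17.2%. Lrp1, the endocytic receptor that also serves calreticulin, fell by 1.57 in WT and by 1.23 in IRF5-KO on the log2 scale (edgeR adjusted p = 5.14e-05 and 0.000325). In IRF5-KO its value was -0.75 with length-dependent offsets (adjusted p = 0.0188) and -0.73 with marker scaling (adjusted p = 0.00801). Timd4, a direct phosphatidylserine receptor of resident macrophages, fell by 1.94 in IRF5-KO (adjusted p = 0.000813) with -0.85 in WT (adjusted p = 0.0911).

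Among 15 further scavenger receptors, 4 were higher and 1 lower in WT, beside 12.1% and 13.2% of all genes. In IRF5-KO 5 were higher and 3 lower, beside 15.6% and 17.2%. Cd163, the receptor for haemoglobin bound to haptoglobin, was lower by a log2 fold change of -0.95 in WT (edgeR adjusted p = 0.044) and -1.86 in IRF5-KO (adjusted p = 0.000482). The call of Cd163 in WT was lost with length-dependent offsets (-0.88, adjusted p = 0.0639) and with marker scaling (-0.49, adjusted p = 0.25). Scara3, Scara5, Scarf2 and Vldlr were higher by log2 fold changes between 2.40 (Scarf2) and 3.21 (Scara5) in WT and between 2.52 (Scara3) and 3.23 (Vldlr) in IRF5-KO, beside the rise of the fibroblast markers given above, whose part was not tested. Among 8 genes of engulfment signalling, Dock2, a Rac activator of leukocytes, fell by 0.71 in WT and by 1.0 in IRF5-KO on the log2 scale (edgeR adjusted p = 0.000423 and 1.38e-05). Its values were smaller, though still called, with length-dependent offsets (-0.44 in WT and -0.70 in IRF5-KO) and with marker scaling (-0.29 and -0.51). The adaptor Gulp1, with 0 to 5 counts per library on ST-HFD, passed the filter only through the LT-HFD libraries, so its place among the higher genes of the wider list is no result. Among 14 genes that act after uptake, 3 were lower and 0 higher in WT and 5 lower and 1 higher in IRF5-KO, beside the same shares of all genes. The lipid sensor Ppard fell by 0.73 in WT and by 1.19 in IRF5-KO on the log2 scale (adjusted p = 0.00654 and 8.95e-05). Vav1, a further Rac activator and 1 of the 8 genes of engulfment signalling, fell by 0.54 in WT and by 0.60 in IRF5-KO on the log2 scale (edgeR adjusted p = 0.0064 and 0.00227). Ucp2, a mitochondrial carrier, fell by 0.67 and by 0.52 on the log2 scale (adjusted p = 0.0042 and 0.0175), in IRF5-KO not with length-dependent offsets (adjusted p = 0.0712). With marker scaling the calls of Vav1 (adjusted p = 0.44 in WT and 0.414 in IRF5-KO), Ucp2 (0.118 and 0.785), Ppard in WT (0.188) and C1qb in IRF5-KO (0.169) were lost. Scaled to the summed macrophage markers, 19 of the 53 genes were higher and 2 lower in WT, where 42.9% and 4.41% of all genes were. In IRF5-KO 27 were higher and 6 lower on that scale, where 49.1% and 5.71% of all genes were.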

How the data were processed

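RNA was sequenced from F4/80+ ATMs in 16 libraries of 4 groups. Reads were aligned to mm10 by the authors with STAR 2.7.3a (fastp 0.19.11 is also named in the submitters' processing notes), and the deposited values are raw counts per gene, without normalization. The annotation release and the strand setting of the counting are not given in the sources used here. Depth was 3279332 to 4958131 counts per library, which limits Marco and Cd5l.

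Tests used edgeR 4.0.16 with limma 3.58.1 in R 4.3.3: filterByExpr with a minimum count of 10, TMM, the quasi-likelihood test and Benjamini-Hochberg adjustment over all genes tested, called at 0.05. Genotypes were compared within each duration, and durations and the interaction in one fit over 16 libraries. CPM used TMM factors over 16 libraries, and log2 CPM a prior count of 2. Exon lengths and coordinates came from GENCODE M21 (GRCm38, the build of mm10), to which 32620 of 37310 identifiers matched. The scripts were tested on simulated data. No 2 libraries of a group were duplicates.

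The 9 members, the wider uptake list, the marker lists (macrophage, fibroblast, adipocyte, endothelial, mesothelial, dendritic cell, monocyte, neutrophil, eosinophil, T or NK and B cells) and the tests were chosen with earlier results of these data known. Named genes were the members, Irf5, Lyz2 and Adgre1, at most 5 genes per direction and comparison of the wider list with an adjusted p under 0.05, by smallest p, and the 3 genes most correlated with each member. Markers and the C1q subunits were named outside this rule, after their values were seen. On ST-HFD, libraries of the 2 genotypes with the same number correlated at 0.179 to 0.483 in their deviations from the group means over 9765 genes. Those with different numbers correlated at -0.509 to 0.467, and as the 2 ranges overlap, pairs were not shown. The main tests did not use the numbers, which were taken as pairs on ST-HFD in alternatives only. Same-number libraries correlated at -0.151 to 0.233 on LT-HFD. Between durations they did so at -0.211 to 0.363 in WT and -0.385 to -0.0148 in IRF5-KO. The numbers were not read as pairs in these comparisons, although the replicate block was run there too. Alternatives were DESeq2 1.42.0 (Wald test) and its size factors, no filter, the 3 most abundant features left out, a replicate block, other sets of libraries in the fit, each library left out, and the added scalings to exon length and to macrophage markers.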

Additional observations from a re-analysis of the deposited data

Results flagged for a closer look

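Of 36 combinations of gene and group, 1 held a library that stood apart from the other 3 by Dixon's criterion at 95%, and chance flags about 1 in 20. Marco was at 12.9 CPM (51 counts) in WT ST-HFD replicate 3, where the nearest library of the group was at 1.85 CPM and the lowest at 0. The gap to the nearest library was 0.856 of the range of the group, above the critical value for 4 libraries.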

How the results depend on the processing

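The call of Stab1 with diet duration held in both genotypes under each alternative run, library omissions included, except that marker scaling ended it in WT (-0.36, adjusted p = 0.204). That of Axl in IRF5-KO libraries held under each. No member was called between genotypes or for the interaction under any alternative run. Under DESeq2, with no filter, with the replicate block and in a fit over 16 libraries, 2 genes in place of 1 were called between genotypes on ST-HFD. On LT-HFD 2 genes were called, with DESeq2 and without a filter 6, and with the replicate block and with length-dependent offsets 0. Leaving out a library gave 0 to 2 genes on LT-HFD, and 1 in each case on ST-HFD. With macrophage marker scaling, the calls with duration numbered 5471 genes (47.3%) and 4 of 8 members in WT and 6336 genes (54.8%) and 5 of 8 members in IRF5-KO.

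Leaving out a library gave 2 to 5 of 8 members called in IRF5-KO (5 without IRF5-KO ST-HFD replicate 1), where 25.8% to 32% of all genes were, and 1 of 8 in WT, where 18.3% to 24.3% were. The replicate block, with numbers that are not pairs between durations, ended the call of Msr1 in IRF5-KO (-0.35, adjusted p = 0.056) and brought that of Mfge8 (0.92, adjusted p = 0.0396). Msr1 also lost its call without a filter (adjusted p = 0.0613) and with each genotype fitted alone (adjusted p = 0.0523), and Gas6 was called without a filter (-0.66, adjusted p = 0.0284) and with length-dependent offsets (-0.78, adjusted p = 0.0467).

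Signs turned where values were near 0: Gas6 on ST-HFD with the replicate block (-0.00021), Msr1 in WT with length-dependent offsets (0.006), and the interaction of Scarb1 with the block (0.023), length-dependent offsets (0.004) and marker scaling (0.061). With marker scaling the change with duration turned for Mertk (0.16 in WT and 0.10 in IRF5-KO), Msr1 (0.33 and 0.15) and Gas6 in WT (0.26), all below the median of all genes, which this scaling moved from 0.02 to 0.46 in WT and from 0.04 to 0.53 in IRF5-KO. Leaving out a library turned the genotype difference on ST-HFD of Mertk (-0.131 to 0.141), Gas6 (-0.088 to 0.154) and Mfge8 (-0.357 to 0.433), that on LT-HFD of Mertk (-0.13 to 0.009), Stab1 (-0.268 to 0.091) and Cd5l (-0.2 to 0.389), the change of Axl in WT (-0.016 to 0.244), and the interaction of Mertk (-0.219 to 0.072), Mfge8 (-0.168 to 0.614) and Scarb1 (-0.184 to 0.25), none of them called. The causes were not tested. With 4 libraries of 3279332 to 4958131 counts a group, Marco and Cd5l are limited by depth.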
